A study of Arabidopsis thaliana with 4 samples.

Results

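The genes described here are the 44 Arabidopsis loci that encode the translation initiation factors eIF1 to eIF6, given as a list of locus identifiers that was drawn up with earlier results of these data known. They were followed in whole seedlings of sahy9-1, a salt-hypersensitive line with a T-DNA insertion in the nucleolar protein gene APUM23, and of its wild type Col-0. Seedlings were raised without added salt for 10 days and then kept on 150 mM NaCl for 1 day, and total RNA from 2 sahy9-1 and 2 Col-0 samples was labelled with a single dye and hybridised to 1 Agilent array each. All 4 samples received salt, so the comparison is of genotypes under salt and holds no unstressed group, and the mutant is represented by 1 insertion allele. Of the 44 loci, 43 had a probe and all 43 passed the signal filter, among 34261 genes or unmatched transcripts on the array and 21729 tested. The remaining locus, AT1G36730, which encodes an eIF5, matched no probe and is not analysed here.

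Translation initiation brings a small ribosomal subunit carrying the initiator tRNA to the start codon of an mRNA. eIF1, eIF1A, eIF3 and eIF5 assemble on the small subunit, and eIF2 delivers the initiator tRNA with GTP. The eIF4 factors bind the cap and unwind the mRNA leader, eIF5 stimulates GTP hydrolysis on eIF2 once the start codon is found, and eIF5B joins the large subunit. eIF6 acts outside this sequence: it binds the large subunit and keeps it from joining the small one, and it takes part in the nucleolar and cytoplasmic maturation of that subunit. Plants carry a second cap-binding complex, eIFiso4F, beside eIF4F, and most factors are encoded by more than 1 gene. The annotation used here gives a symbol for 29 of the 44 loci and only the locus name for 15, and for these the factor stands as in the list of loci.

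Levels are given as log2 of the background-subtracted intensity minus the 75th percentile of its array, so that 0 is the level at the 75th percentile, and a change is the sahy9-1 mean minus the Col-0 mean on this scale. A probe's level depends on its own sequence, so levels are compared between samples and never between genes. On the 4 arrays 74.6% to 76.3% of gene spots were well above background and 0 were saturated, and arrays of 1 genotype correlated at 0.99 to 1.00 across tested genes. APUM23, the mutated gene, had levels of -3.35 and -3.59 in sahy9-1 and of -0.62 and -0.42 in Col-0, which was 7.71-fold lower in the mutant (limma, adjusted P = 0.000974). Markers of the main tissues of a seedling were well above background on all 4 arrays. Of 7 photosynthetic shoot genes 0 were higher and 3 were lower, calls made for 25.3% and 24.1% of all tested genes. Their changes ran from -0.72 to -0.15. In all 7 both mutant arrays lay below both wild-type arrays, a share not computed over all genes. Their summed linear level, in multiples of the 75th percentile, was 365 and 386 in sahy9-1 and 424 and 444 in Col-0. Of 5 tested root genes 0 passed in limma, nor did any at an unadjusted P of 0.05, and the sum over all 6 listed was 2.03 and 2.09 in sahy9-1 and 2.02 and 2.62 in Col-0. Of 6 genes of dividing cells only the cyclin CYCB1;1 was called, 3.08-fold higher. An unadjusted P of 0.05 in limma was passed by 2, as by 12493 of the 21729 tested genes. Both mutant arrays lay above both wild-type arrays in 4, as in 39.9% of tested genes. The sum was 3.55 and 3.80 in sahy9-1 and at most 3.18 in Col-0. This sum includes CYCB1;1, with levels of -0.86 and -0.85 in sahy9-1 and of -2.46 and -2.50 in Col-0. It is not read as a rise across these markers, since the other 5 were not called and CYCB1;4 changed by -0.041. In whole seedlings a change in the share of a tissue and a change in RNA per cell cannot be told apart, and the part of these marker differences in the values below was not tested.

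Most initiation factor genes were modestly higher in sahy9-1 than in Col-0, in every factor group but eIF1. The members' median change was 0.44 on the log2 scale, or 1.36-fold, against -0.0048 for all tested genes. Of the 43 measured members 35 were up-regulated at an adjusted P of 0.05 or less, a call made for 25.3% of all tested genes, and 1 was down-regulated, a call made for 24.1% of them. The other 7 did not pass, with changes from -0.14 to 0.19. Both mutant arrays lay above both wild-type arrays in 38 members, as in 39.9% of tested genes. They lay below both in 3, a share not computed over all genes. Leaving out TIF3C2, the 34 remaining up-regulated members changed by 0.23 to 1.05, so that the movement was of a size well below the 3-fold difference used in the study to call a gene. Past 1.5-fold stood 7 members, as did 11.4% of tested genes. Past 3-fold stood 1 member, TIF3C2, as did 1.66% of tested genes, and it passed the signal filter only through its sahy9-1 arrays.

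**Figure D1:**
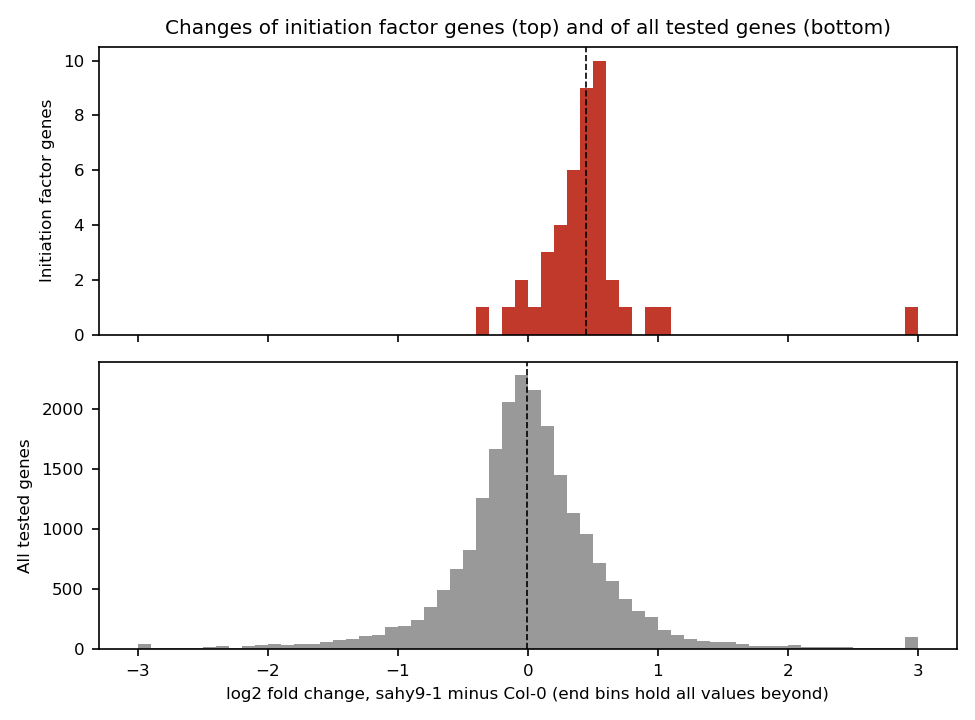
Counts of genes by log2 fold change (sahy9-1 minus Col-0) in bins of 0.1, for the 43 measured initiation factor genes (top) and the 21729 tested genes (bottom), with a dashed line at each median. The members' median stands at 0.44 and that of all genes close to 0, and 1 member, TIF3C2, falls in the last bin.

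The count rested on all 4 arrays. Without sahy9-1 replicate 1, 9 members passed the threshold as higher and without sahy9-1 replicate 2, 10 did, and 12.1% and 11.7% of all tested genes passed in these fits. Without Col-0 replicate 1 the count was 29, with 20.0% of all genes called, and without Col-0 replicate 2 it was 32, with 24.0% of all genes. With normexp background correction 19 members were higher (6.06% of all genes) and without the signal filter 21 were (10.3% of all genes). With the methods' t-test 34 were higher at an unadjusted P of 0.05, which 9543 of the 21729 genes passed in either direction, and 0 after Benjamini-Hochberg adjustment, where 83 genes passed. When an array was left out, the members' median moved less, to between 0.38 and 0.50 over these 4 fits. By array, the median of the members relative to their Col-0 mean was 0.46 and 0.44 in sahy9-1 and -0.055 and 0.055 in Col-0. Col-0 replicate 2 was above replicate 1 in 34 of the 43 members (79.1%) and in 50.2% of tested genes, so the wild-type arrays themselves differed a little in these genes, by less than the difference between genotypes.

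**Figure D2:**
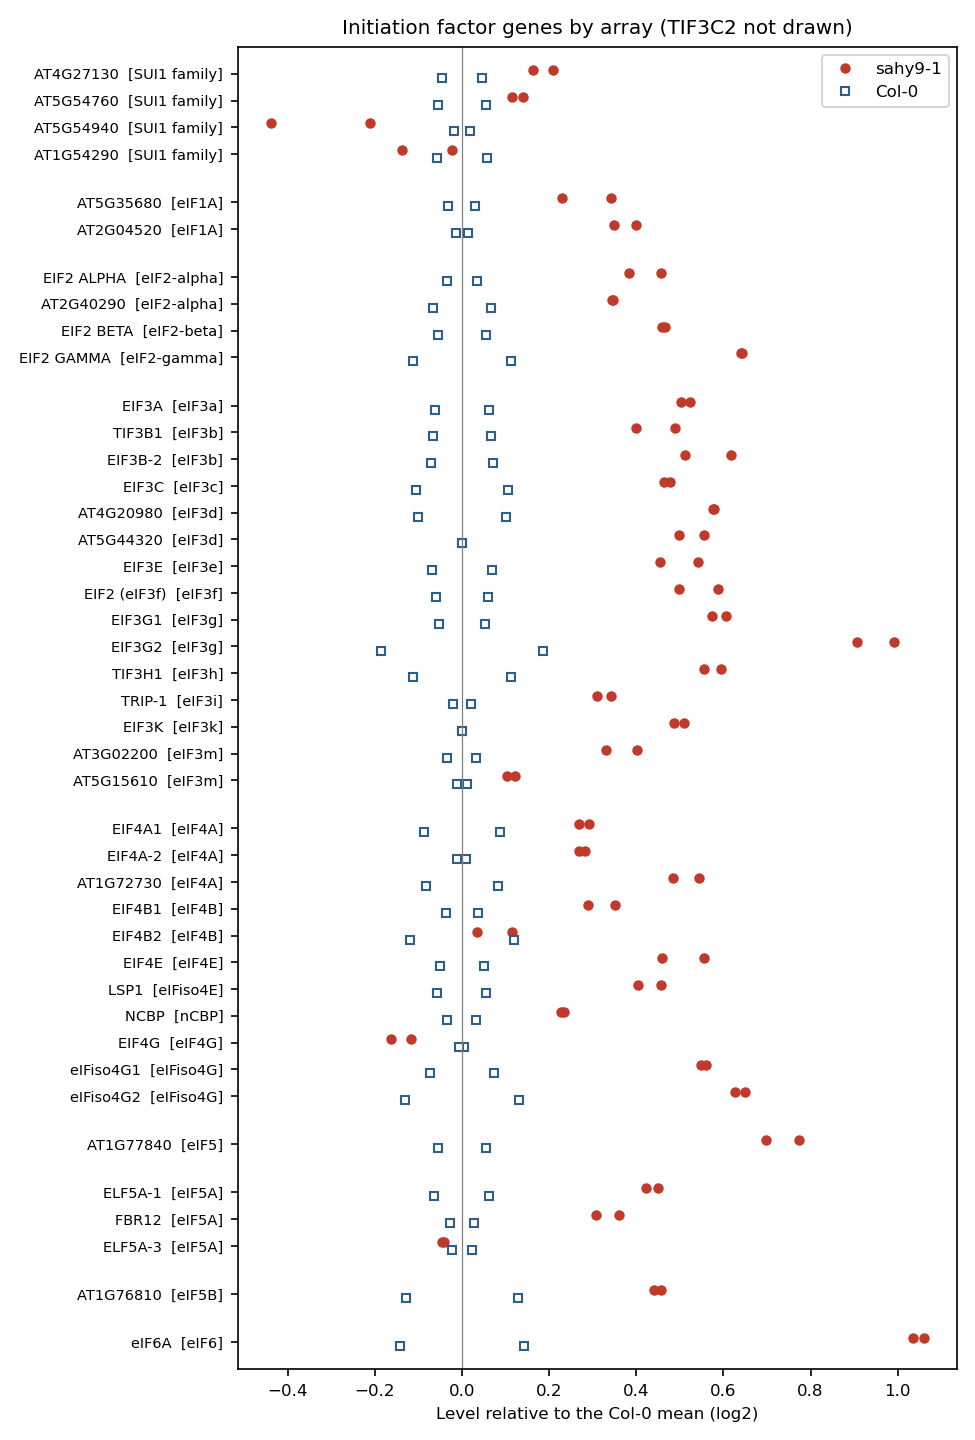
Level of each measured member but TIF3C2 on every array, relative to the gene's Col-0 mean (log2), with sahy9-1 as filled circles above Col-0 as open squares and genes grouped by factor. Most circles lie between 0.2 and 0.7, while AT5G54940, AT1G54290, EIF4G and ELF5A-3 lie below 0.

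The genes of eIF1 were the group that did not follow. eIF1, whose protein carries the SUI1 fold and guards start-codon selection, is encoded by 4 listed loci. Of these 0 were higher, 1 was lower and 3 did not pass (median 0.024), against 25.3% of all tested genes higher and 24.1% lower. AT5G54940 had levels of 3.97 and 4.20 in sahy9-1 and of 4.39 and 4.42 in Col-0, so the genotypes did not overlap, and it was the only down-regulated member (change -0.32 ± 0.098 SE, limma adjusted P = 0.0492). All 3 of its probes were lower, by -0.32 to -0.29. Its call lies at the threshold and was lost in 8 of 16 alternative analyses, where the adjusted P ranged from 0.0273 to 0.224, among them each that left out an array. The other eIF1 genes had changes of 0.19 for AT4G27130, 0.13 for AT5G54760 and -0.080 for AT1G54290, and only the last had overlapping genotypes. eIF1A, which works with eIF1 during scanning, is encoded by AT5G35680 and AT2G04520, and both were up-regulated, by 0.29 and 0.37. The call of AT5G35680 (limma adjusted P = 0.0328) was lost in 7 of 16 alternatives.

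All 4 genes of eIF2 were up-regulated, a call made for 25.3% of all tested genes, with a median of 0.44. The alpha subunit, whose phosphorylation lowers initiation, is encoded by EIF2 ALPHA and AT2G40290, which changed by 0.42 and 0.35. The beta subunit gene EIF2 BETA changed by 0.46. EIF2 GAMMA, which encodes the GTP-binding subunit that holds the initiator tRNA, had levels of 2.72 and 2.73 in sahy9-1 and of 1.97 and 2.20 in Col-0. Its genotypes stood clearly apart and it was 1.56-fold higher (change 0.64 ± 0.096 SE, limma adjusted P = 0.00796), with a change of 0.53 to 0.75 over the alternatives.

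eIF3, the large scaffold complex that links the small subunit to the mRNA-bound factors, is represented by 16 listed genes. Of these 15 were up-regulated and 0 were down-regulated, calls made for 25.3% and 24.1% of all tested genes. In all 16 both mutant arrays lay above both wild-type arrays, as in 39.9% of tested genes. Apart from TIF3C2, 15 genes of the complex had a median change of 0.51, with a range from 0.11 to 0.95. The core subunits eIF3a and eIF3b changed by 0.51 for EIF3A, 0.44 for TIF3B1 and 0.56 for EIF3B-2. Further subunits moved likewise, with 0.58 for AT4G20980 and 0.53 for AT5G44320 (eIF3d), 0.50 for EIF3E, 0.58 for TIF3H1 (eIF3h, known for the translation of mRNAs with upstream reading frames) and 0.50 for EIF3K. The eIF3f gene AT2G39990, which the annotation lists as EIF2, changed by 0.54. The eIF3i gene TRIP-1 changed by 0.33 at its brightest probe and by 0.49 at its other probe. For eIF3m, AT3G02200 changed by 0.37, and AT5G15610 was the member of the complex that did not pass, with levels of 1.53 and 1.52 in sahy9-1 and of 1.40 and 1.43 in Col-0 (change 0.11, limma adjusted P = 0.19).

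A far larger difference stood in the second gene of eIF3c, a subunit of the complex core. TIF3C2 (EIF3C-2) had levels of -2.08 and -2.22 in sahy9-1, with intensities of 792 and 636, and of -7.71 and -7.09 in Col-0, with intensities of 13.6 and 20.0. The transcript was thus close to the detection limit in the wild type, where its probe was well above background on 1 of 2 arrays, and clearly detected on both mutant arrays. TIF3C2 passed the signal filter only through its sahy9-1 arrays, so it was admitted to the test through the genotype where it is high. It was 38.1-fold higher in sahy9-1 (change 5.25 ± 0.22 SE, limma adjusted P = 0.00107). With wild-type values raised to the lowest signal that counted as well above background, the difference was 30.5-fold. The size of this change and its call depend on how the dim wild-type spots are corrected: with normexp background correction and an offset of 50 the change was 2.18 with an adjusted P of 0.167, in a range from 0.000159 to 0.167 over the 16 alternatives. The other eIF3c gene, EIF3C, had levels of 2.60 and 2.61 in sahy9-1 and of 2.03 and 2.24 in Col-0, which was 1.39-fold higher (change 0.47 ± 0.093 SE, limma adjusted P = 0.0158).

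Both genes for eIF3g, an RNA-binding subunit, were up-regulated. EIF3G2 had levels of -0.17 and -0.25 in sahy9-1 and of -1.35 and -0.98 in Col-0, so that the wild-type arrays differed by more than the mutant ones and the genotypes did not overlap. It was 1.93-fold higher (change 0.95 ± 0.14 SE, limma adjusted P = 0.00771), with 0.76 when Col-0 replicate 1 was left out and 1.13 when Col-0 replicate 2 was. EIF3G1 had levels of 3.24 and 3.21 in sahy9-1 and of 2.58 and 2.68 in Col-0, and was 1.51-fold higher (change 0.59 ± 0.071 SE, limma adjusted P = 0.00519).

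Of the 11 genes of the eIF4 group 9 were up-regulated and 0 were down-regulated, calls made for 25.3% and 24.1% of all tested genes. The other 2 did not pass, and the median of the group was 0.32. eIF4A is the RNA helicase of the cap-binding complex, and its 3 genes changed by 0.28 for EIF4A1, 0.28 for EIF4A-2 and 0.51 for AT1G72730. The first of these calls is at the threshold (limma adjusted P = 0.0492) and was lost in 7 of 16 alternatives, with adjusted P from 0.0171 to 0.201. For the helicase cofactor eIF4B, EIF4B1 was up-regulated by 0.32, and EIF4B2, at 0.074, did not pass and had overlapping genotypes. The cap-binding proteins were all higher, with changes of 0.51 for EIF4E, 0.43 for LSP1 (eIFiso4E) and 0.23 for NCBP. The call of NCBP (limma adjusted P = 0.0403) was lost in 8 of 16 alternatives, and that of EIF4A-2 (limma adjusted P = 0.0217) in 7.

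The scaffold proteins that hold the cap-binding protein and the helicase together are encoded by 3 listed genes, of which both eIFiso4G genes were up-regulated and EIF4G was not called. eIFiso4G2 had levels of 1.26 and 1.28 in sahy9-1 and of 0.51 and 0.77 in Col-0, and was 1.56-fold higher (change 0.64 ± 0.11 SE, limma adjusted P = 0.0102). eIFiso4G1 had levels of 2.22 and 2.23 in sahy9-1 and of 1.60 and 1.75 in Col-0, and was 1.47-fold higher (change 0.55 ± 0.078 SE, limma adjusted P = 0.00698). EIF4G, the scaffold of eIF4F, had levels of 1.60 and 1.65 in sahy9-1 and of 1.77 and 1.76 in Col-0. Both of its mutant arrays thus lay below both wild-type arrays, but the difference did not pass (change -0.14 ± 0.063 SE, limma adjusted P = 0.128).

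Of the late-acting factors, eIF5, eIF5A and eIF5B were measured by 5 genes, of which 4 were up-regulated, a call made for 25.3% of all tested genes. The eIF5 gene AT1G77840 had levels of 1.72 and 1.64 in sahy9-1 and of 0.89 and 1.00 in Col-0. It was 1.67-fold higher, with arrays of each genotype close together (change 0.74 ± 0.075 SE, limma adjusted P = 0.00408). AT1G76810, which encodes an eIF5B, changed by 0.45. Of the 3 genes for eIF5A, a factor that helps ribosomes past difficult peptide bonds, ELF5A-1 and FBR12 were up-regulated by 0.44 and 0.33, while ELF5A-3 had levels of 3.50 and 3.50 in sahy9-1 and of 3.56 and 3.52 in Col-0 and did not pass (change -0.043, limma adjusted P = 0.596).

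eIF6A encodes the subunit anti-joining and large-subunit maturation factor. Its levels were 3.21 and 3.23 in sahy9-1 and 2.03 and 2.31 in Col-0, and each mutant array lay well above each wild-type array. It was 2.07-fold higher (change 1.05 ± 0.11 SE, limma adjusted P = 0.00435), at the 96.2 percentile of all tested changes, and its change stayed between 0.91 and 1.19 over the alternatives. With eIF6A and TIF3C2, 2 of the 43 measured members passed the adjusted P and changed at least 2-fold. Over all tested genes 8.38% did so in either direction, so this count is not read as a result about the members.

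Differences between paralogs were compared within each array, as the level of one gene minus that of the other, over 24 pairs. In 20 pairs the values of this difference did not overlap between genotypes. The share over pairs of other genes was not computed, and several pairs share a gene, so this count is not read as a result about paralogs. With 2 arrays against 2 the two-sided exact permutation test cannot give a p below 0.333 (0.4 after adjustment over the 24 pairs). This test could not have called any pair, whatever the values, and the differences are given as descriptions. The sign of each difference below follows from naming first the gene that changed more. The widest gap was that of TIF3C2 and EIF3C, where the difference between genotypes was 4.78 (pooled SD 0.22, exact p = 0.333). It rests on the dim wild-type spots of TIF3C2 and was 4.46 with low signals raised to the well-above-background floor and 1.67 with normexp correction. It was followed by eIFiso4G2 and EIF4G at 0.78 (SD 0.14) and eIFiso4G1 and EIF4G at 0.69 (SD 0.081), and by the eIF1 genes AT4G27130 and AT5G54940 at 0.51 (SD 0.11). The value was 0.48 (SD 0.044) for ELF5A-1 and ELF5A-3 and 0.36 (SD 0.13) for EIF3G2 and EIF3G1, the last at 0.16 with normexp correction and at 0.23 without Col-0 replicate 1. Smaller values were found for EIF4A1 and EIF4A-2 at 0.0036 (SD 0.098) and the eIF3d genes AT4G20980 and AT5G44320 at 0.052 (SD 0.11), in which the values overlapped. In 8 of the 24 pairs the fitted values had opposite signs, each time with EIF4G, ELF5A-3, AT5G54940 or AT1G54290 below 0, of which only AT5G54940 passed the test of the single gene. No probe sequences were used here, so it is not known how far probes of near-identical paralogs such as the eIF4A, eIF5A and eIF3 pairs bind each other's transcripts.

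**Figure D3:**
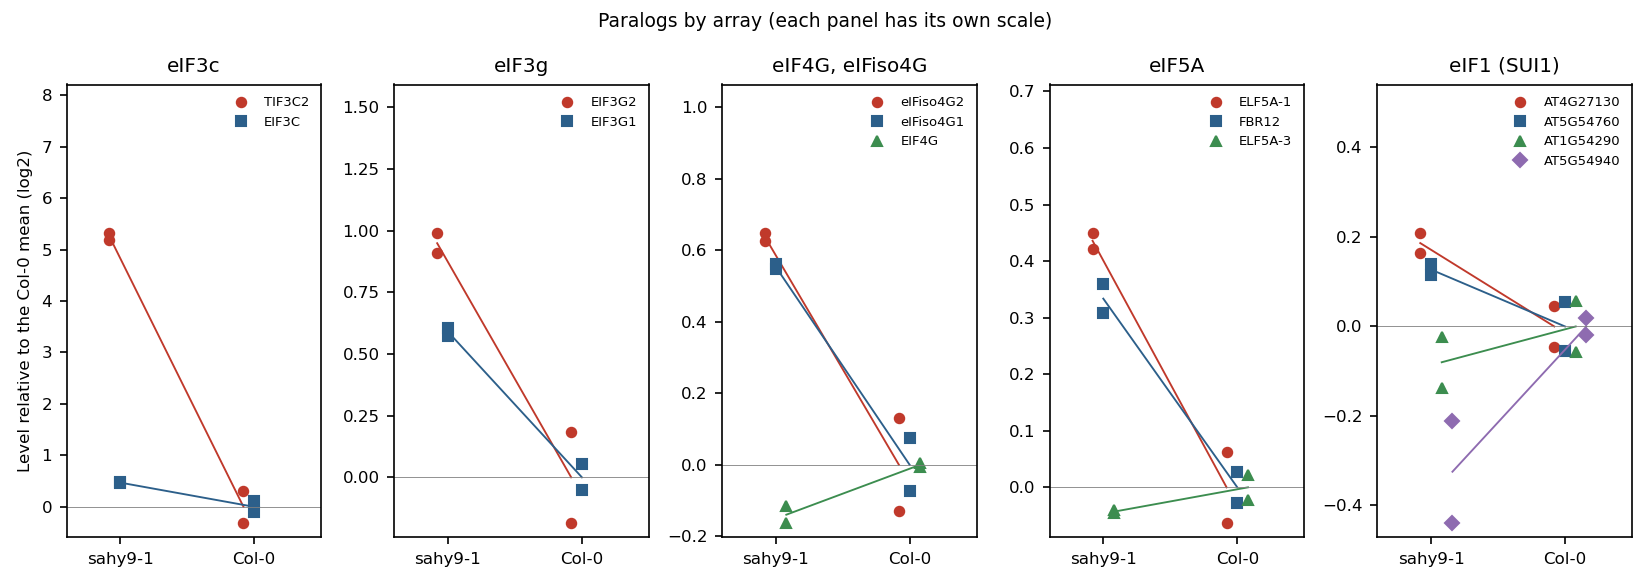
Levels of 5 groups of paralogs on each array relative to the gene's Col-0 mean (log2), with sahy9-1 on the left and Col-0 on the right of each panel and a line joining the genotype means. TIF3C2 lies above 5 in sahy9-1 while EIF3C lies near 0.47, and EIF4G and ELF5A-3 lie slightly below 0.

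The 43 genes were measured by 65 probes, and 16 genes had more than 1. In all 16 the probes' differences had the same sign, with a median spread between probes of 0.063. The widest spread, 0.25, was that of EIF4A1, whose 4 probes changed by 0.28 to 0.53, with the smallest change at the brightest probe. EIF4A-2 followed with 3 probes between 0.28 and 0.49, and FBR12 with probes at 0.14 and 0.33. With the mean of probes in place of the brightest, the counts of members called did not change, while the small difference between EIF4A1 and EIF4A-2 changed sign. The members were spread over the genome, with 12, 5, 9, 5 and 13 on chromosomes 1 to 5. EIF4A-2, up-regulated by 0.28, and AT1G54290, which did not pass at -0.080, are separated by 1 protein-coding gene.

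Other genes of initiation were followed with a list of 36 loci, of which 35 had a probe and 25 were tested. Of these 16 were up-regulated and 1 was down-regulated, with a median of 0.42. Over all tested genes these calls were made for 25.3% and 24.1%, shares that also stand beside the eIF3 and eIF2B counts below. All 5 further genes of eIF3 rose, by 0.40 to 0.81, among them AT5G25757 (eIF3l) by 0.81 and AT2G46290, a second eIF3i gene that lies next to TRIP-1, by 0.76. Of the 8 tested genes for eIF2B, the exchange factor that recycles eIF2, 3 were higher and 1 was lower. The lower one, AT1G72340, had levels of -0.77 and -0.76 in sahy9-1 and of 1.09 and 1.02 in Col-0, a 3.53-fold decrease (change -1.82 ± 0.065 SE, limma adjusted P = 0.000827). It is separated from APUM23 by 1 protein-coding gene, and whether its level depends on the insertion there was not tested. GCN2, the eIF2 alpha kinase, had a change of -0.19 that did not pass.

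Beside TIF3C2, the other initiation genes past 3-fold higher were AT2G18720 and PAB5. All 3 passed the signal filter only through their sahy9-1 arrays, so they were admitted to the test through the genotype where they are high. AT2G18720, a second gene of the eIF2 gamma family, had levels of -0.10 and -0.045 in sahy9-1 and of -5.40 and -5.32 in Col-0. It was well above background on all 4 arrays and 39.0-fold higher (change 5.29 ± 0.070 SE, limma adjusted P = 0.000160). PAB5, a poly(A)-binding protein gene, had levels of -3.35 and -2.98 in sahy9-1 and of -6.84 and -6.68 in Col-0, was well above background on 1 of 2 wild-type arrays, and was 12.1-fold higher (change 3.59 ± 0.15 SE, limma adjusted P = 0.000974). With normexp correction AT2G18720 changed by 3.49 with an adjusted P of 0.0505, within a range from 6.53e-05 to 0.0505, and PAB5 by 0.94 with an adjusted P of 0.426, within a range from 0.000244 to 0.426. Of the other initiation genes with a probe, 10 did not reach the signal filter and were not tested. Of these, 3 were well above background on both sahy9-1 arrays and on 0 of 2 Col-0 arrays. eIF6B, the second eIF6 gene, had levels of -5.11 and -5.32 in sahy9-1 and of -8.67 and -8.34 in Col-0. With low signals raised to the well-above-background floor, eIF6B was 3.99-fold higher, AT3G07920 of the eIF2 beta family 2.79-fold and PAB3 2.14-fold. These values rest on the background subtraction of the processed signal. No normexp value is given for these 3 genes, so the values are not lower bounds under other corrections. A further 3, PAB1, PAB6 and AT3G02270, were well above background on no array. The remaining 4 had measured differences of -0.080 for eIF4E3, 0.75 for AT2G44070, 0.89 for PAB7 and 1.33 for AT4G18330, of which AT4G18330 was well above background on 1 sahy9-1 array only. In the floored values of eIF6B, AT3G07920 and PAB3 the sahy9-1 mean is set against the mean of the lowest signal well above background on each Col-0 array, or of the probe's own signal where that was higher.

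The genes of elongation and termination, which act after initiation, were mostly higher as well. Of 16 such genes 12 were up-regulated and 1 was down-regulated, calls made for 25.3% and 24.1% of all tested genes. The other 3 did not pass, the median of the 16 was 0.37, and 0 passed 3-fold. The 3 eRF1 genes for the release factor that reads stop codons changed by 0.50 to 0.60 and the eEF2 gene AT3G12915 by 0.41. Among the 4 eEF1A genes AT1G07920 and AT1G07930 were up-regulated by 0.43 and 0.35. The genes that did not pass were AT1G07940 at 0.27 and AT5G60390 at 0.027, both eEF1A genes, and the eEF2 gene LOS1 at 0.17. The down-regulated gene, AT5G12110, encodes the eEF1B beta subunit and changed by -0.49, while its paralog AT5G19510 changed by 0.45. The median of 0.44 of the initiation factor genes lay close to those of both other lists, and no difference between the lists was tested.

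**Figure D4:**
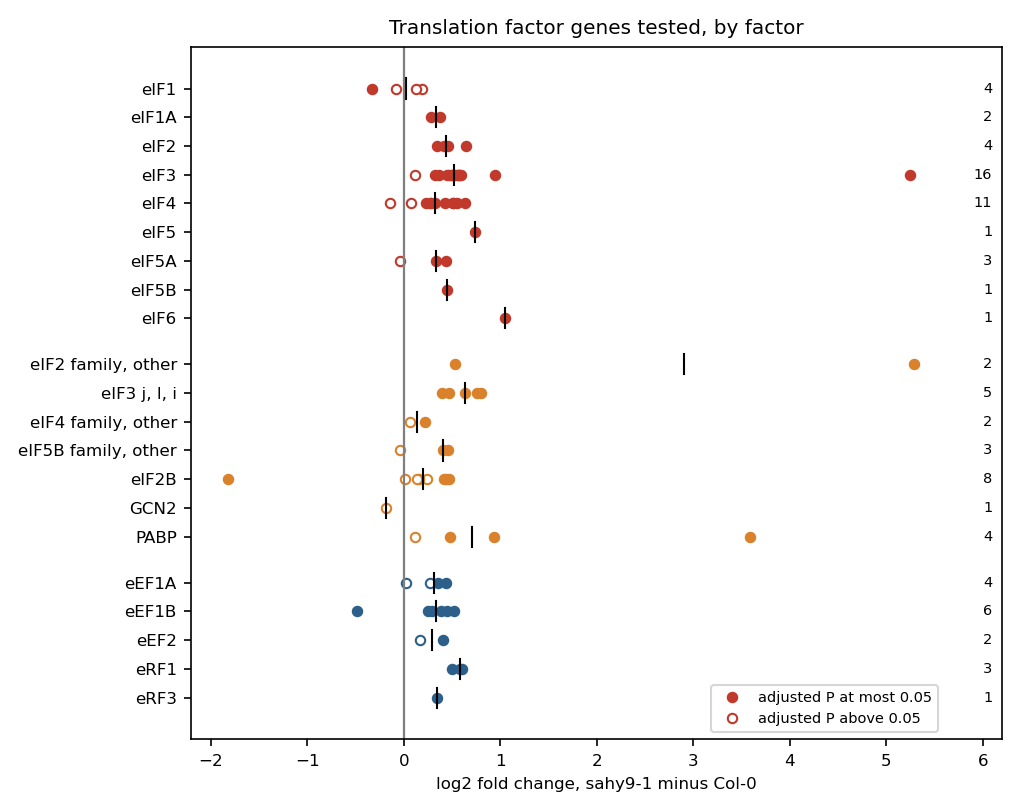
log2 fold change (sahy9-1 minus Col-0) of each tested gene of the initiation factors (upper block), of the other initiation genes (middle block) and of elongation and termination (lower block), with filled points for adjusted P at most 0.05, a black bar at the median and the number of genes tested at the right. Most groups have medians between 0.2 and 0.8, and TIF3C2, AT2G18720 and PAB5 stand apart above 3.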

How the data were processed

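Labelled RNA from 2 sahy9-1 and 2 Col-0 seedling samples was hybridised to 1-colour Agilent arrays, all on 1 slide and in 1 scan. The deposited intensities come from the authors' run of Agilent Feature Extraction 10.7.1.1, whose processed signal has the background subtracted. The series value table, as deposited, holds log2 values that follow scaling to the 75th percentile and were set by the authors to the wild-type mean of each probe. Its columns had medians of -0.099 and -0.084 in sahy9-1 and of 0.018 and -0.018 in Col-0, and it differed from the values used here by at most 0.00034 on member probes. The methods name MAS 5.0 for the normalisation. These values were used as an alternative.

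Control and outlier spots were left out and spots of a probe averaged. Each array was scaled to its 75th percentile, a gene was represented by its brightest probe on average, and genes that reached an intensity of 100 on each array of sahy9-1 or on each array of Col-0 were tested with limma 3.58.1 in R 4.3.3, with Benjamini-Hochberg adjustment over 21729 genes (files were read with jsonlite 2.0.0 and version 1.17.8 of data.table, and figures drawn with matplotlib 3.10.9). Code was tested on simulated arrays. Of 35137 transcript names on the array 26309 matched a locus of the TAIR10.1 annotation by accession or locus name, and the others were kept under their own names. The array files name an older build, so no coordinates are given.

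Levels on every array are given for members past an adjusted P of 0.05 and 1.5-fold, for their paralogs of the same subunit, for members not well above background in a genotype, and of the other lists for genes past 3-fold. AT5G54940, AT5G15610, EIF4G, ELF5A-3, eIF6B and the other untested genes, and the genes of the other lists under 3-fold, fall outside this rule and were named after their values were seen. The members, lists and tests were chosen with earlier results of these data known. Paralog differences were tested by exact permutation over the 4 arrays, two-sided. The number of arrays limits the precision: the spread of a gene rests mostly on that pooled over all genes. The labels do not say that samples came from separate cultures, whereas the methods give 2 biological experiments. Alternatives changed the background correction, scaling, filter, probes per gene, outlier spots, variance model, pairing, test, table, fold threshold and arrays. A floor on low signals was added after seeing the data. The normexp correction used the median spot and background signals.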

Additional observations from a re-analysis of the deposited data

How the results depend on the processing

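Of the 43 measured members, all kept their direction and side of the threshold with quantile normalization, median scaling, the mean of probes, outlier spots kept, an intensity trend, the deposited values and the added floor on low signals. Some of these settings could hardly move a call. The deposited values lay within 0.00034 of those used on member probes. Median scaling shifted the changes of all members alike, and the floor raised only TIF3C2 among members. With normexp correction, 19 members were higher, 0 were lower and 0 passed 3-fold, while 6.06% of all genes were called higher and the median change of all genes was -0.10. Without a signal filter 21 were higher and 0 lower, against 10.3% and 8.96% of 34252 genes. With a filter on well-above-background spots 33 were higher and 0 lower, against 22.5% and 20.9% of 24867 genes, and EIF4A1 and NCBP were no longer called. The methods' t-test gave 34 members higher, 1 lower and 1 past 3-fold at an unadjusted P of 0.05 (limma gave 36, 1 and 1), but 0, 0 and 0 after Benjamini-Hochberg adjustment, where the smallest member P was 0.0529 and 83 of all genes passed. A 2-fold threshold gave 2 members, against 8.38% of all genes in either direction. Leaving out 1 array gave 9 to 32 higher, 0 lower, and a median of 0.38 to 0.50, which moved beyond the spread between replicates (SD 0.056) without Col-0 replicate 1, to 0.38. In these fits the lone array was assumed to vary as the other genotype did.

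The direction changed for ELF5A-3 with normexp (0.082) and for EIF4B2 without Col-0 replicate 1 (-0.046, in a range up to 0.19 without Col-0 replicate 2), neither of them called. Among paralog differences it changed with normexp for EIF2 ALPHA and AT2G40290 (-0.080) and for ELF5A-1 and FBR12 (-0.021), for EIF4A1 and EIF4A-2 with the mean of probes (-0.0088), without sahy9-1 replicate 2 (-0.0013) and without Col-0 replicate 1 (-0.094, up to 0.10 without Col-0 replicate 2), and for AT4G20980 and AT5G44320 without Col-0 replicate 1 (-0.049, up to 0.15 without Col-0 replicate 2). The causes were not tested.

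Samples of both genotypes carry replicate numbers, and deviations of same-numbered arrays from their genotype mean correlated at 0.44 over tested genes, with 2 pairs only, so the numbers were not taken to pair the samples. With a replicate block 35 members were higher, 1 was lower and 1 passed 3-fold, and the block changed no call of a member.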
